A study of Mus musculus with 4 samples.

Results

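Transcripts of the contractile actin cytoskeleton were measured in EpSCs, the stem cells of the skin epidermis, from which its keratinocytes are renewed. The genes were 10, chosen by symbol among the 54532 mouse genes of a deposited table: Acta2, Tagln, Cnn1, Myl9, Actn1, Tpm1, Tpm2, Tpm4, Vcl and Flna. The cells came from the skin of C57BL/6 mice and grew in EpiLife medium with HKGS additives. The ALP group received 30 μg/mL ALP for 48 h, taken to be the polysaccharide of Arctium lappa L., or burdock, in the series title. The control group received 0.06% DMSO, the vehicle, for the same 48 h. Each group had 2 libraries, named A and B here, with total gene counts between 15766244 and 17430345. Whether the libraries of a group were separate cultures or animals is not stated in the labels, nor whether the ALP cultures also held DMSO. P-values therefore measure only the spread between these libraries, which may be technical.

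Contractile force in a non-muscle cell comes from bundles of actin filaments pulled by myosin II. Tropomyosins run along the filaments and set which proteins may bind them, α-actinin and filamin cross-link the filaments, and vinculin ties them to integrin adhesions at the membrane. Smooth muscle and myofibroblasts add their own members, smooth muscle α-actin, transgelin, calponin 1 and the light chain Myl9, many of which are transcribed through serum response factor (SRF) and its actin-sensing cofactors. Keratinocytes use the non-muscle part of this set for spreading, migration and wound closure.

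After ALP, 4 of the 10 members rose, 1 fell and 5 did not pass the test. Actn1, an α-actinin gene, rose 2.47-fold, Tpm1 2.33-fold, Flna 1.66-fold and Tpm4 1.63-fold. The light chain gene Myl9 fell to 0.684 of its control level. Acta2, Tagln, Cnn1, Tpm2 and Vcl did not pass the test (edgeR's quasi-likelihood F test, two-sided, Benjamini-Hochberg adjusted p under 0.05 over 14056 genes tested). Over all genes tested 30.9% were called, 18.0% as higher and 12.9% as lower in ALP. All 5 calls were lost when either control library, A or B, was left out, where edgeR called 0 genes of any kind although 3380 (control A out) and 4131 (control B out) genes had an unadjusted p under 0.05. The log2 fold changes of the 5 called members kept their sign in each of these fits.

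**Figure D1:**
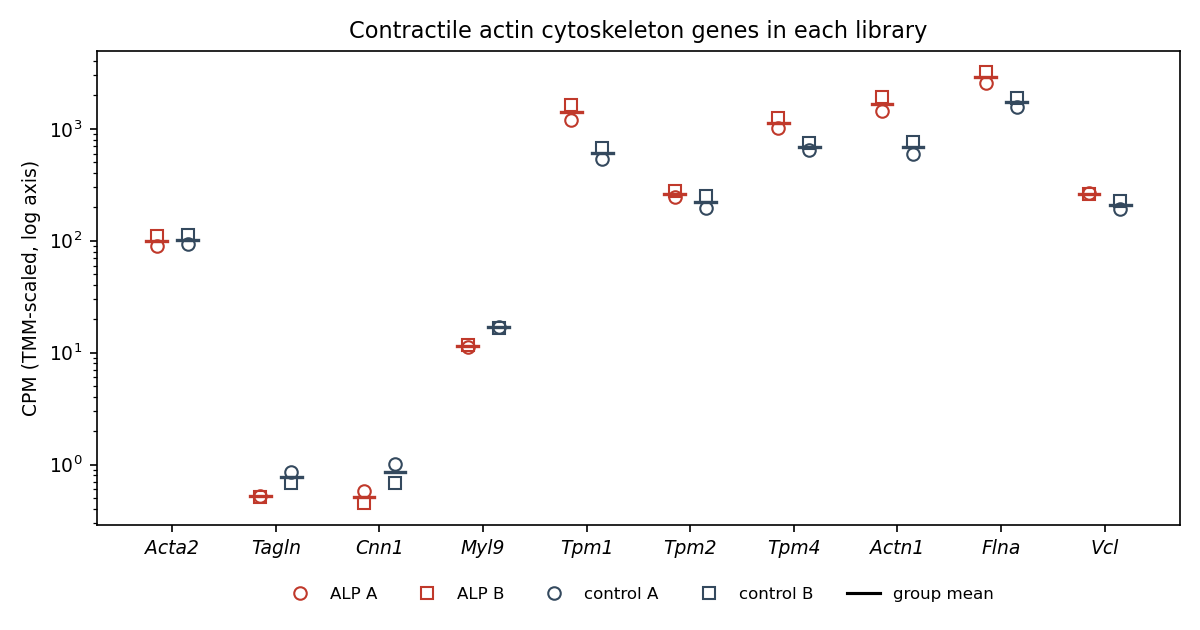
Level of each member in each library, as CPM (counts relative to the library total, scaled by TMM) on a log axis, with ALP to the left of control for every gene, circles for replicate A, squares for replicate B and bars for the group means. Actn1, Tpm1, Tpm4 and Flna lie higher in both ALP libraries than in both controls, while Acta2 overlaps and Tagln and Cnn1 stay near 1 CPM or under it.

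Within each group the libraries kept an order across most members. Of the 8 members with at least 100 counts in every library, 7 were higher in ALP replicate B than in ALP replicate A and 7 were higher in control replicate B than in control replicate A. The B libraries carry the same replicate number in the deposited table, and the A libraries do not. The 10 genes together took 0.679% and 0.848% of all gene counts in ALP, against 0.391% and 0.471% for control. In 8 of 10 members the libraries of the groups did not overlap, against 75.7% of all genes tested. Both ALP libraries were above both controls in 5 members, against 38.2% of all genes tested, and below both in 3 members, against 37.5%. Of those 3, Tagln and Cnn1 passed the low-count filter only through the control libraries, where they are higher, so this count of 3 supports no fall of theirs.

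The labelled cell type was checked against markers. The keratinocyte genes Krt5 and Krt14, which encode the keratin pair of the basal layer, were among the most abundant transcripts. Krt5 measured 14839 and 12313 CPM in ALP and 21245 and 21193 CPM in control, below the controls in both ALP libraries without passing (adjusted p = 0.0719 by edgeR). Krt14 measured 14324 and 11170.1 CPM in ALP and 18985 and 19150.5 CPM in control (adjusted p = 0.0982 by edgeR). The 7 keratinocyte markers summed to 29852 to 36206 CPM in ALP against 48354 to 48537 CPM in control, with 2 called higher and 2 lower. For this and the next marker lists, the shares over all genes tested were 18.0% called higher and 12.9% lower. Among 11 smooth muscle and myoepithelial markers, 6 (Myh11, Des, Lmod1, Kcnmb1, Pln and Oxtr) stayed under 1 CPM in every library, and Des had 0 counts in all of them. Of the 5 tested, 0 were called higher and 2 lower, Ppp1r14a and Synpo2, both under 7 CPM. Ppp1r14a passed the low-count filter only through the control libraries, where it is higher, so its call is no support for a fall. The list summed to 147 and 158 CPM in ALP against 137 and 145 CPM in control. Most of that came from Smtn, the smoothelin gene, at 98.6 and 112 CPM in ALP and 85.9 and 89.8 CPM in control (adjusted p = 0.0921 by edgeR), and from Casq2, a calsequestrin gene, at 42.1 and 40.4 CPM in ALP and 35.7 and 43.1 CPM in control. The 8 fibroblast markers summed to 15.7 to 19.0 CPM in ALP against 27.9 to 33.6 CPM in control, with Lum at 0 counts. Postn and Dcn, a matrix protein and a proteoglycan gene, were its most abundant genes by mean count, and both passed as lower, with log2 fold changes of -1.72 ± 0.25 for Postn and -2.56 ± 0.62 for Dcn (adjusted p = 0.0151 and 0.0332 by edgeR), while Fbn1, the fibrillin 1 gene, rose by 2.04 ± 0.29. The value of Dcn, with 53 and 8 counts in ALP, was -4.38 with ALP replicate A left out and -1.81 with ALP replicate B left out. Dcn passed the low-count filter only through the control libraries, where it is higher, so its call is no support for a fall. The 7 pericyte and endothelial markers summed to 26.3 to 34.3 CPM in ALP against 35.1 to 37.2 CPM in control. None of them had 0 counts in all libraries, and 4 (Pdgfrb, Rgs5, Kcnj8 and Cdh5) stayed under 1 CPM in each. Of these, Rgs5, Kcnj8 and Cdh5 had at most 2 counts in any library. Cspg4, a proteoglycan gene listed for pericytes, fell by 1.57 ± 0.15, and Pecam1, listed for endothelium, rose by 1.21 ± 0.32. Kdr, also listed for endothelium, had 105 and 170 counts in ALP and 9 and 18 counts in control. Its log2 fold change was 3.46 ± 0.47. Kdr passed the low-count filter only through the ALP libraries, where it is higher, so this value is no support for a rise. In bulk RNA fewer cells of a type and less RNA per cell cannot be told apart, and the part of other cell types in the members' differences was not tested.

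The stretches before the transcription start are shown for Myl9, Vcl, Acta2 and Actn1. The windows of Myl9 and Vcl hold an exact match to the element of SRF, the textbook regulator of this set. Acta2, whose groups overlapped, holds that element in its window only with 1 letter changed. Actn1, which rose most among the members, holds neither form in its window. RefSeq promoter windows (GRCm38.p6, 250 bases before to 50 after the start) were matched for 9 of the 10 members, and not for Tagln. They were searched on both strands for the CArG box, the SRF element, and for the MCAT element, which TEAD factors bind and which reads CATTCC on one strand and, on the other, GGAATG. The motifs share no letters in these windows. The bases below lie before both the RefSeq start and the first base of the gene in the deposited table. They are in lower case, with only exact motif matches in capitals.
Myl9, chr2:156775214-156775419, plus strand: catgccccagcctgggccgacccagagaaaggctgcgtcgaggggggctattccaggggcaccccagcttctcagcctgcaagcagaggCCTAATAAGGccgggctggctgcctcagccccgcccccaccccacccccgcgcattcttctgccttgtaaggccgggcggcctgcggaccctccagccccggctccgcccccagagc
Vcl, chr14:20929148-20929397, plus strand: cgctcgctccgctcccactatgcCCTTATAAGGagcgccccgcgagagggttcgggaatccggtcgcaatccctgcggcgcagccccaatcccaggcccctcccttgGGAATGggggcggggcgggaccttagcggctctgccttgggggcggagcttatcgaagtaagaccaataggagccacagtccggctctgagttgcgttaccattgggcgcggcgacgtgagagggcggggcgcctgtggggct
Acta2, chr19:34255374-34255623, minus strand: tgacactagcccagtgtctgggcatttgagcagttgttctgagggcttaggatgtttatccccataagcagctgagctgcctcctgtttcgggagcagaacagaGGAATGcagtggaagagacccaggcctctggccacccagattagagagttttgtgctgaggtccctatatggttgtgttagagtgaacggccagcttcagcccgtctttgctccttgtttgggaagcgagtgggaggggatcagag
Actn1, chr12:80260372-80260613, minus strand: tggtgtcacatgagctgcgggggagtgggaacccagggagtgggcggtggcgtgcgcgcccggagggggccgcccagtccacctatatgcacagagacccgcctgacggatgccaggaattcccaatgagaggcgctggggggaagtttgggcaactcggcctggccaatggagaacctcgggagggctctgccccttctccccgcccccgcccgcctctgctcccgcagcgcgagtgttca
An exact CArG box occurred in 2 of the 9 windows, in Myl9 at -161 to -152 from the RefSeq start (CCTAATAAGG) and in Vcl at -227 to -218 (CCTTATAAGG), against 1.63% of 32817 mouse windows of the same length. MCAT letters occurred in Acta2 and Flna at -146 to -141, in Vcl at -143 to -138 and in Tpm1 at -56 to -51, against 14.7% of all windows. Allowing 1 changed letter, a CArG-like stretch occurred in Myl9, Vcl, Acta2, Tpm1 and Flna, against 21.1% of all windows, a search added after the exact one was seen. Actn1, Tpm4, Tpm2 and Cnn1 held neither motif in this window. A match in letters is a description and not a binding site.

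Acta2, Tagln and Cnn1 did not pass the test, and of the 3 only Acta2 was measured at more than trace levels. Acta2 (chromosome 19, 34241090 to 34255336, minus strand, GRCm38, as for all genes below in the table's own coordinates), which encodes smooth muscle α-actin, had 1542 and 1720 counts in ALP and 1641 and 1955 counts in control. In TMM-scaled CPM this was 89.2 and 111 in ALP and 92.9 and 112 in control, so the groups overlapped almost fully. The log2 fold change was -0.03 ± 0.15 (SE, n = 2 per group, adjusted p = 0.892 by edgeR), and its sign turned without ALP replicate A (0.12) and without control replicate B (0.11). Actin coding sequences are closely related, but only 0.326% of the 50-base stretches of Acta2 transcripts occurred exactly in transcripts of other genes, Actg1 among them.

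Tagln (chromosome 9, 45929619 to 45936058, minus strand), which encodes transgelin or SM22α, had 9 and 8 counts in ALP and 15 and 12 counts in control. Cnn1 (chromosome 9, 22099216 to 22109630, plus strand), which encodes calponin 1, had 10 and 7 counts in ALP and 18 and 12 counts in control. Both genes lay lower in both ALP libraries, but they entered the test only through the control libraries, which alone reached 0.575 CPM before TMM scaling, the level to which a minimum count of 10 corresponds. The log2 fold changes of -0.56 ± 0.44 for Tagln and -0.71 ± 0.47 for Cnn1 did not pass (adjusted p = 0.363 and 0.283 by edgeR). For Tagln the count is further limited by its position, since 67.9% of its exon bases are shared with exons of Pcsk7 and Gm48529 on the opposite strand, and no source used here says whether strand was used in counting. Cnn1 shares no exon bases with another gene.

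Myl9 (chromosome 2, 156775420 to 156781658, plus strand) encodes the regulatory light chain of myosin II found mainly in smooth muscle and other contractile cells. It had 195 and 181 counts in ALP and 298 and 293 counts in control, or 11.3 and 11.7 CPM in ALP and 16.9 and 16.7 CPM in control. The libraries of a group nearly coincided, and the ALP pair lay below the control pair. Myl9 fell by 0.55 ± 0.14 on the log2 scale (adjusted p = 0.0371 by edgeR). DESeq2's Wald test gave nearly the same size, -0.55, and did not pass (adjusted p = 0.063).

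**Figure D2:**
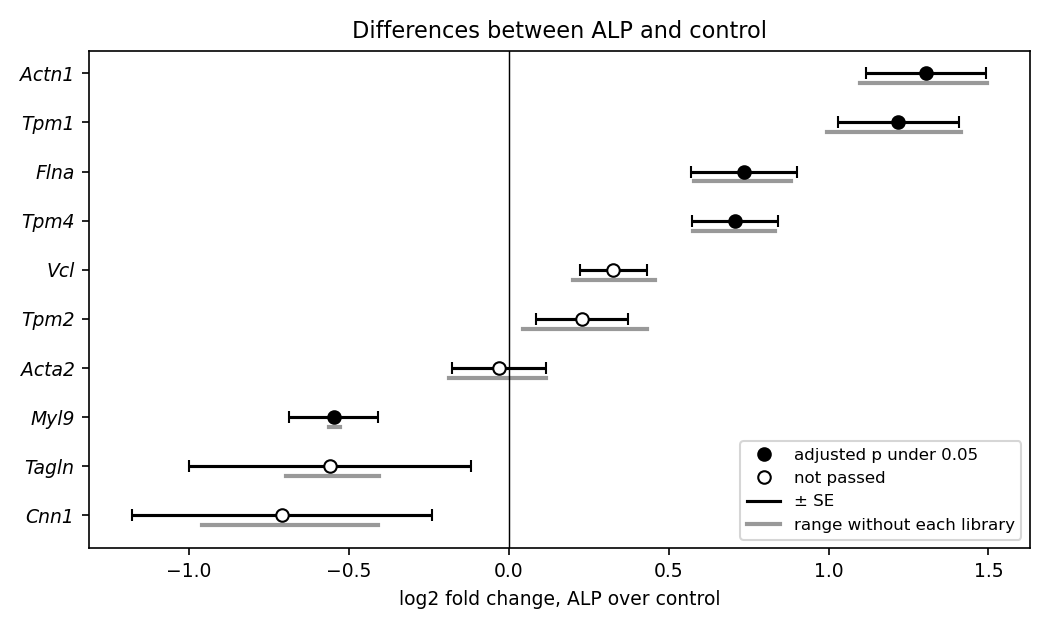
Log2 fold change of ALP over control for each member, with its standard error (black) and the range over the 4 fits that leave out 1 library each (grey). Filled points passed an adjusted p under 0.05 by edgeR: Actn1, Tpm1, Flna and Tpm4 lie above 0 and Myl9 below it.

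Among the tropomyosin members the responses were unequal. Tpm1 (chromosome 9, 67022590 to 67049406, minus strand) measured 1206 and 1629 CPM in ALP and 538 and 680.2 CPM in control. The lower ALP library was still well above the higher control library, and Tpm1 rose by 1.22 ± 0.19 on the log2 scale (adjusted p = 0.0153 by edgeR). Tpm4 (chromosome 8, 72134975 to 72153142, plus strand), a tropomyosin of non-muscle stress fibers, measured 1026 and 1241 CPM in ALP and 649.5 and 739 CPM in control and rose by 0.71 ± 0.13 (adjusted p = 0.0193 by edgeR). Of its 50-base stretches 15.7% also occurred in other annotated genes, mostly Gm7809, so some of its reads may have been placed elsewhere or left out. Tpm2 (chromosome 4, 43514711 to 43523765, minus strand) measured 246 and 276 CPM in ALP and 194 and 251 CPM in control. Its groups overlapped, and the log2 fold change of 0.23 ± 0.14 did not pass (adjusted p = 0.26 by edgeR). Leaving out control replicate A gave 0.04, and leaving out control replicate B gave 0.43. Within each library the ratio of Tpm1 to Tpm2 counts was 4.91 and 5.91 in ALP against 2.77 and 2.71 in control. That ratio needs no scaling between libraries, but with 2 libraries per group an exact permutation test cannot go below p = 0.333. Tpm1 has 21 annotated transcripts in GENCODE M21, muscle and non-muscle forms among them, and counts per gene do not separate them.

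The filament cross-linkers rose in both ALP libraries. Actn1 (chromosome 12, 80167547 to 80260371, minus strand), which encodes α-actinin 1, the bundling protein of stress fibers and adhesions, had 24977 and 29670 counts in ALP and 10570 and 13348 counts in control. This was 1445 and 1918 CPM in ALP and 599 and 762 CPM in control. The groups stood well apart, and Actn1 rose by 1.31 ± 0.19 on the log2 scale (adjusted p = 0.0151 by edgeR). By log2 fold change it ranked 604 of 14056 genes tested, and Tpm1 ranked 699. Flna (X chromosome, 74223461 to 74249820, minus strand), which encodes filamin A, the cross-linker of orthogonal actin networks, had the highest counts of the members, 44279 and 49460 in ALP and 27835 and 32975 in control. In CPM it measured 2562 and 3198 in ALP and 1576 and 1884 in control, again without overlap. Flna rose by 0.74 ± 0.16 (adjusted p = 0.0275 by edgeR).

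Vcl (chromosome 14, 20929398 to 21033676, plus strand) encodes vinculin, which links talin at integrin adhesions to actin. It measured 265 and 259.8 CPM in ALP and 192 and 227 CPM in control. Both ALP libraries lay above both controls, but the difference of 0.33 ± 0.11 on the log2 scale did not pass (adjusted p = 0.0635 by edgeR, and 0.0643 by DESeq2's Wald test). It passed when ALP replicate A alone or ALP replicate B alone was left out (adjusted p = 0.0276 and 0.00988 by edgeR), where the spread comes from the control pair alone. Exons of Ap3m1 on the opposite strand cover 25.5% of the exon bases of Vcl, and Ap3m1 had 8758 counts over the 4 libraries against 15963 for Vcl.

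Levels of different genes were compared per length, as RPKM, here the TMM-scaled CPM divided by the deposited gene length in kilobases. In mean RPKM the order in ALP was Tpm4 (515), Flna (306), Actn1 (304), Tpm1 (219), Tpm2 (89.6), Acta2 (56.3), Vcl (32.0), Myl9 (9.89), Tagln (0.261) and Cnn1 (0.188). In control it was Tpm4 (315), Flna (184), Actn1 (123), Tpm1 (93.9), Tpm2 (76.5), Acta2 (57.4), Vcl (25.6), Myl9 (14.5), Tagln (0.386) and Cnn1 (0.312). The order was the same in the 2 groups. The neighbours Flna and Actn1 overlapped in ALP, at 273 and 340.2 RPKM for Flna and 261 and 347 RPKM for Actn1. Tpm1 and Tpm2 overlapped in control, at 83.0 and 105 RPKM for Tpm1 and 66.7 and 86.3 RPKM for Tpm2, and did not overlap in ALP, at 186 and 251 RPKM for Tpm1 and 84.5 and 94.8 RPKM for Tpm2. By mean RPKM over the 4 libraries Tpm4 ranked 64 of all genes in the table and Cnn1 ranked 14957.

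**Figure D3:**
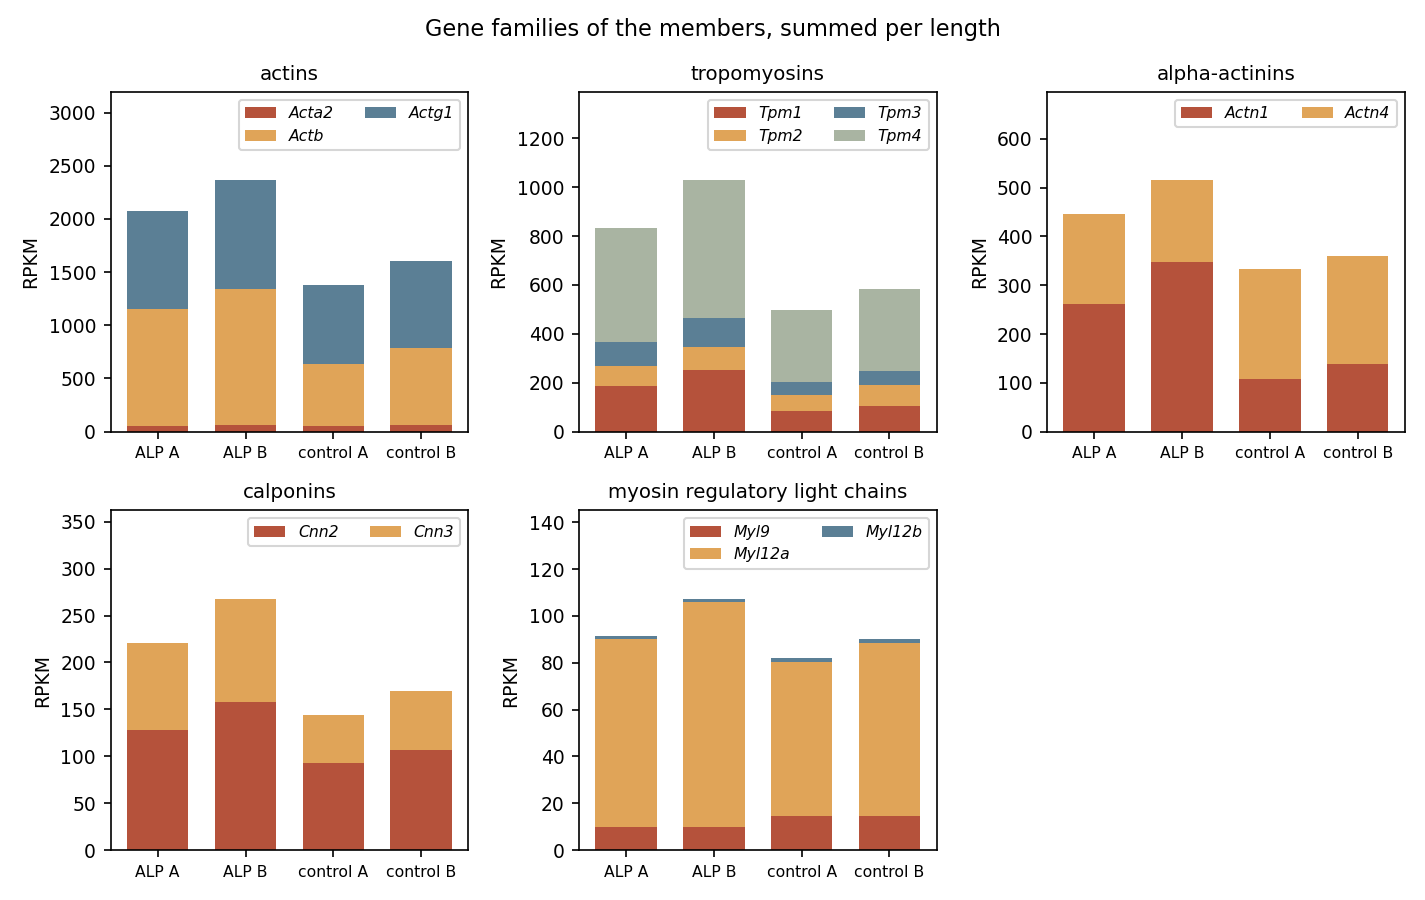
RPKM of 5 gene families to which members belong, stacked by gene in each library, ALP bars left of control bars. Genes under 1 RPKM in every library are not drawn, Cnn1 among them. Actn1 makes up 58.4% and 67.3% of α-actinin RPKM in the ALP bars and 32.5% and 38.2% in the control bars, and Acta2 is a thin slice of the actins in each library.

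Set among their paralogs, most of the smooth muscle members were minor forms. Of the summed RPKM of the 6 actin genes, Acta2 made up 2.42% and 2.64% in ALP against 3.78% and 3.90% in control, since Actb rose and Acta2 did not. Cnn1 made up 0.0956% and 0.0617% of the 3 calponins in ALP and 0.258% and 0.148% in control. Tagln made up 0.0670% and 0.0605% of the 3 transgelins in ALP and 0.169% and 0.124% in control. Since 67.9% of the exon bases of Tagln are shared with the opposite strand, its share may be understated, which was not tested. Myl9 made up 10.6% and 9.38% of the 3 regulatory light chains in ALP and 17.7% and 16.0% in control. Myl12a, a non-muscle form, had the largest share in each library. Myl12a and Myl12b are near-identical, so reads may be split between them. Tpm4 made up 56.0% and 54.7% of the tropomyosins in ALP and 59.3% and 57.3% in control, and Tpm1 made up 22.4% and 24.4% in ALP and 16.7% and 17.9% in control.

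The α-actinins showed the widest shift among these families. Actn1 made up 58.4% and 67.3% of the 4 α-actinins in ALP against 32.5% and 38.2% in control. Its non-muscle paralog Actn4 measured 1137 and 1033 CPM in ALP and 1373 and 1365 CPM in control, and its log2 fold change of -0.34 ± 0.10 missed the threshold by edgeR (adjusted p = 0.0561) but passed by DESeq2's Wald test (adjusted p = 0.0158). The count ratio of Actn1 to Actn4 was 1.27 and 1.86 in ALP against 0.436 and 0.559 in control. Summed over a family, the ratio of mean RPKM in ALP over control was 1.72 for tropomyosins, 1.56 for calponins, 1.54 for transgelins, 1.49 for actins, 1.39 for α-actinins and 1.15 for regulatory light chains.

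The related genes of the system were read from 5 lists with 54 genes, chosen with earlier results of these data known. Of these genes 49 were tested, 18 were called higher and 3 lower (edgeR, adjusted over all genes tested). Over all genes tested 18.0% were called higher and 12.9% lower. With lists chosen in this way, a difference from these shares is a description only. Of 8 listed paralogs of the members 7 were tested, 5 rose and 0 fell, with a median log2 fold change of 0.63, against -0.00 over all genes tested. Tpm3, a tropomyosin gene, rose by 0.95 ± 0.13, Cnn3, the acidic calponin gene, by 0.83 ± 0.14 and Tagln2, the non-muscle transgelin gene, by 0.63 ± 0.10 (adjusted p = 0.0151, 0.0157 and 0.0158 by edgeR). Tagln2 measured 813 and 894 CPM in ALP and 527 and 578 CPM in control. The calponin and transgelin forms that rose were thus the abundant ones, with Cnn2 also higher by 0.52 ± 0.13 (adjusted p = 0.0366 by edgeR). Of the other actin genes 3 of 5 were tested, and Actb and Actg2 were called higher. Actb, cytoplasmic β-actin, measured 2942 and 3429 CPM in ALP and 1566 and 1944 CPM in control and rose by 0.86 ± 0.16 (adjusted p = 0.019 by edgeR). Actg1, cytoplasmic γ-actin, differed by 0.32 ± 0.13 and did not pass (adjusted p = 0.103 by edgeR). Actg2, enteric smooth muscle actin, had 21 and 15 counts in ALP and 4 and 4 counts in control (adjusted p = 0.0268 by edgeR). It passed the low-count filter only through the ALP libraries, where it is higher, so its call, included in the counts of this list and of all lists, is no support for a rise. Cytoplasmic actin genes have many processed pseudogenes, and no source used here says how reads that fit several genes were treated.

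Of 11 genes of myosin II and its light chain regulation 10 were tested, 1 rose and 0 fell, with a median of -0.06, beside the same shares over all genes tested. The gene that rose was Myh10, the heavy chain of myosin IIB, at 67.0 and 80.6 CPM in ALP and 26.8 and 35.6 CPM in control, by 1.24 ± 0.17 (adjusted p = 0.0151 by edgeR). The more abundant Myh9, the heavy chain of myosin IIA, measured 2787 and 3142 CPM in ALP and 2327 and 2539 CPM in control and did not pass (adjusted p = 0.142 by edgeR). Myh14, the heavy chain of myosin IIC, measured 12.0 and 2.91 CPM in ALP and 31.7 and 25.5 CPM in control, with ALP libraries far apart (adjusted p = 0.0512 by edgeR). Ppp1cb, the catalytic subunit of myosin phosphatase, measured 348 and 332 CPM in ALP and 422 and 398 CPM in control (adjusted p = 0.0599 by edgeR).

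**Figure D4:**
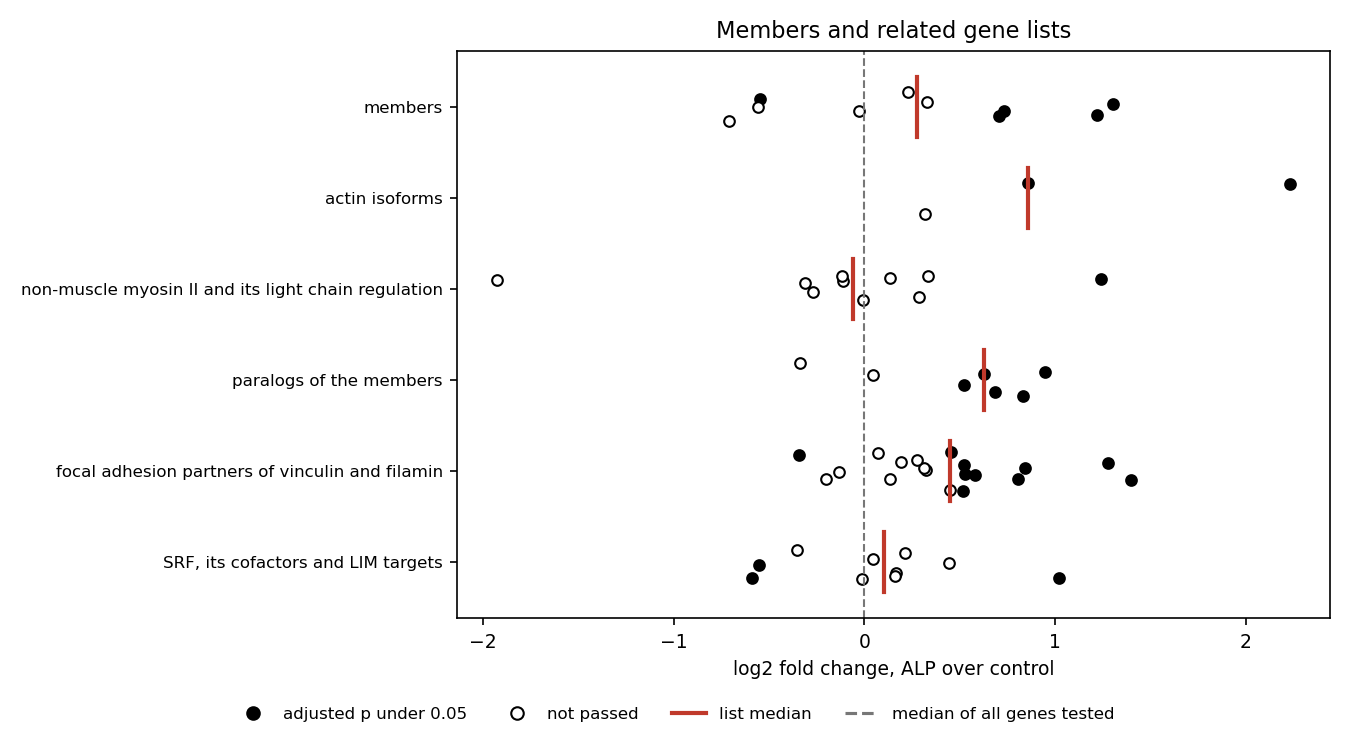
Log2 fold change of ALP over control for the tested genes of the members and of each of the 5 related lists, 1 point per gene, spread vertically at random for legibility. Filled points passed an adjusted p under 0.05 by edgeR, red bars are list medians and the dashed line is the median of all genes tested. The paralogs lie mostly to the right and the SRF list on both sides of 0.

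Of 19 adhesion genes around vinculin, all tested, 9 rose and 1 fell, with a median of 0.45, beside 18.0% called higher and 12.9% lower over all genes tested. Parva, which encodes α-parvin, a link between integrin-linked kinase and actin, measured 382 and 498 CPM in ALP and 148 and 185 CPM in control and rose by 1.40 ± 0.17. Fermt1, the kindlin-1 gene of keratinocyte integrin activation, rose by 1.28 ± 0.20, and Pxn, the paxillin gene, by 0.84 ± 0.15 (adjusted p = 0.0149, 0.0151 and 0.0174 by edgeR).

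Of 11 genes of SRF, its cofactors and LIM targets 10 were tested, 1 rose and 2 fell, with a median of 0.10, a share called near the 30.9% of all genes tested. Srf measured 129 and 117 CPM in ALP and 121 and 127 CPM in control, and the groups overlapped. Myocd, the smooth muscle cofactor of SRF, had 0 counts in all 4 libraries. Elk3, a ternary complex factor that binds with SRF, rose by 1.02 ± 0.20 and its relative Elk4 fell by 0.55 ± 0.13 (adjusted p = 0.0211 and 0.0307 by edgeR). Csrp1, a LIM protein gene of smooth muscle and adhesions, measured 371 and 324 CPM in ALP and 513 and 535 CPM in control and fell by 0.59 ± 0.10 (adjusted p = 0.0165 by edgeR).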

How the data were processed

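Total RNA was extracted with TRIzol and libraries were made by a service company, per the labels' protocols. The authors deposited raw counts per gene, whole numbers that are not normalized, made with HISAT2 2.0.5 (alignment) and featureCounts 1.5.0-p3 (counting) according to the submitters' processing notes. GRCh38 is the build named there, whereas all 54532 identifiers are mouse ones, and 98.3% of those matched in GENCODE M21 have its GRCm38 coordinates. RPKM was computed from the counts and the deposited gene lengths, where FPKM had been planned, and 4 columns of FPKM per library were not used. The signal columns of the authors' deposited table (normalized group means), its log2 fold changes and its p-values come from a test not given in the sources used here and were not used.

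The column numbers differ from those in the labels, so columns were assigned to groups only. Counts were analysed with edgeR 4.0.16 in R 4.3.3: filterByExpr (minimum count 10, minimum total 15), TMM, glmQLFit with legacy=FALSE, glmQLFTest, Benjamini-Hochberg over 14056 genes, with 2 residual degrees of freedom. The common BCV, edgeR's variation between libraries beyond counting error, was 0.144, and this variation may be technical. CPM is TMM-scaled, and 3 counts are 0.172 to 0.190 CPM before scaling. No intervals of counts are given, and each ± is the SE of a log2 fold change from the edgeR fit, which includes the spread between libraries. Alternatives were DESeq2 1.42.0, limma-voom (limma 3.58.1), RLE scaling, no filter, each library left out, an adjusted p under 0.1 and, chosen after seeing the data, legacy=TRUE.

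Members and lists were chosen with earlier results of these data known. Named were all members, the 3 genes with the smallest p of each related list and the 2 most abundant of each marker list. Actn4, Cnn2, Myl12a, Myl12b, Myh9, Srf, Myocd, Kdr and Fbn1, and the genes under other observations, were chosen after their values were seen. Some related genes are not reported here.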

Additional observations from a re-analysis of the deposited data

How the results depend on the processing

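No paired analysis was possible because the columns of the 2 groups share only 1 replicate number (3, replicate B of each), and those numbers differ from the labels'. Without the low-count filter edgeR called 0 genes of 25280 (7068 at an unadjusted p under 0.05, smallest adjusted p = 0.0524), hence 0 members and 0 list genes in either direction, while DESeq2's Wald test called 4091 genes and limma-voom 4741. Limma-voom called 5 list genes as lower. With 1 library left out, between 0 and 7518 genes were called, between 0 and 5 members as higher, between 0 and 1 as lower, and between 0 and 27 list genes as higher and 0 and 7 as lower. The zeros are the fits without a control library. The 7518, the 27 and the 7 are without ALP replicate A, where the spread comes from the control pair alone. The 5 members called higher include Vcl. By DESeq2's Wald test 4 members were called higher, Actn1, Tpm1, Tpm4 and Flna, as by edgeR. By the same test 0 members were lower, since Myl9 missed the threshold, and Tagln has no adjusted p there. With RLE scaling, limma-voom and the earlier quasi-likelihood method each of the 10 members kept its sign and its side of the threshold. At an adjusted p under 0.1 5 members were higher. Signs turned, with 1 library left out, in 4 genes that did not pass: Acta2 (-0.19 to 0.12, with 0.11 without control replicate B), Casq2 (-0.073 to 0.21), Srf (-0.093 to 0.069, with 0.026 without control replicate B) and Cald1 (-0.073 to 0.16, with -0.018 without control replicate A). The causes were not tested. Depth limits Tagln and Cnn1, with at most 18 counts per library.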

Other observations

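Genes beyond the naming rule, chosen after their values were seen, include more of the adhesion list. Among adhesion genes Tln1, which encodes talin 1, rose by 0.58 ± 0.11, Zyx, the zyxin gene, by 0.53 ± 0.13 and Fermt2, the kindlin-2 gene, by 0.80 ± 0.16. The adhesion gene that fell was Tns1, the tensin 1 gene, by 0.34 ± 0.10 (adjusted p = 0.0482 by edgeR, and 0.0618 by DESeq2's Wald test).

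Some genes listed as smooth muscle markers differed between the groups at low level. Ppp1r14a, which encodes CPI-17, an inhibitor of myosin phosphatase, measured 1.10 and 0.259 CPM in ALP and 6.57 and 6.45 CPM in control. Its log2 fold change was -3.21 ± 0.47 (adjusted p = 0.0151 by edgeR). The gene passed the low-count filter only through the control libraries, where it is higher, so this value is no support for a fall. Synpo2, the myopodin gene, measured 2.03 and 1.36 CPM in ALP and 4.98 and 3.54 CPM in control and fell by 1.32 ± 0.34 (adjusted p = 0.0363 by edgeR). Cald1, the caldesmon gene, measured 772 and 914 CPM in ALP and 789 and 848 CPM in control, and its groups overlapped. Krt15, a keratin gene of basal and follicle stem cells, measured 58.4 and 1.75 CPM in ALP and 251 and 201 CPM in control, so the ALP libraries lay far apart (adjusted p = 0.12 by edgeR).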
